A study of Sus scrofa with 12 samples.

Results

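Transcripts of 10 receptors for bone morphogenetic proteins (BMPs), activins and transforming growth factor beta (TGF-beta) were followed in the striatum of newborn piglets. The set is ACVRL1 with ENG, ACVR1, BMPR1A, BMPR1B, BMPR2, ACVR2A, ACVR2B, TGFBR1 and TGFBR2, and all 10 names were found among the 25880 genes of the count table, each with 1 gene ID. ACVRL1 was selected because of its result in the comparison of DHCA against Sham in these same libraries. Its values in that comparison are therefore given as a description, and the 9 others were added as its family.

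Piglets of the DHCA group (deep hypothermic circulatory arrest, n = 6) received 4% isoflurane, were connected to cardiopulmonary bypass through the opened chest and were cooled to 18 °C. Their circulation was then stopped for 30 min, bypass was resumed while they were warmed to 37 °C, and the striatum was taken after 6 h of recovery. Sham piglets (n = 6) were kept under 4% isoflurane, with no recovery time given, so surgery, bypass, cooling and arrest cannot be told apart in this comparison. Each library is labelled as striatum of a neonatal piglet, and the labels used here name no strain.

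Apart from ENG, these receptors are serine/threonine kinases that work in pairs. A type II receptor (BMPR2, ACVR2A, ACVR2B or TGFBR2) binds the ligand and phosphorylates a type I receptor (ACVRL1, ACVR1, BMPR1A, BMPR1B or TGFBR1), which in turn phosphorylates SMAD proteins that enter the nucleus. ACVRL1, also called ALK1, is found mainly on endothelial cells, where it answers to the circulating ligands GDF2 and BMP10 with the help of the co-receptor ENG (endoglin). Mutations of ACVRL1 or ENG cause hereditary haemorrhagic telangiectasia in humans, in which arteries and veins are wrongly joined, also in the brain.

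Library totals ran from 5434652 to 9997400 counts in DHCA and from 1377809 to 12933536 in Sham. Sham 1 and Sham 5 were the shallowest and had the smallest shares of mitochondrial counts, 4.01% and 7.30%, against 10.6% to 26.3% in the other 10 libraries. Sham 4 went against its label. Markers of spiny projection neurons, the main striatal cell, held 0.0131% of its counts, against 0.209% to 0.476% in DHCA and 0.277% to 0.620% in the other Sham libraries. Markers of cortical projection neurons held 0.112% of counts in Sham 4 and at most 0.00298% in any other library. Where leaving out these libraries, singly or together, moved a named fold change by over 1.5 times, a value without 1 or more of them is given for the receptors, the endothelial markers named by rule and the pathway genes named by rule.

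ACVRL1 (ENSSSCG00000000232, Sscrofa11.1 chromosome 5, 17263907 to 17285874, plus strand) was lower in DHCA than in Sham. It had 6.96, 5.71, 3.84, 5.78, 5.60 and 9.27 CPM (counts scaled by TMM to a common library size) in DHCA 1 to 6. In Sham 1 to 6 it had 20.9, 10.1, 17.4, 16.5, 21.3 and 11.3 CPM. All 6 DHCA libraries lay below all 6 Sham libraries, and the gap between DHCA 6 and Sham 2 was narrow. Such a separation in the lower direction was found in 0.314% of all genes tested, and nothing is read from it here, since ACVRL1 was selected on this contrast. The means were 6.19 ± 1.81 CPM in DHCA and 16.3 ± 4.71 CPM in Sham (SD, n = 6 each), a log2 fold change of -1.37 (SE 0.25), or 0.388 of the Sham level. These values rest on 25 to 71 raw counts per DHCA library and 32 to 155 per Sham library.

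ACVRL1, put on the list because of this comparison, had an adjusted p of 0.0415 in edgeR's quasi-likelihood test over 14004 genes, just inside the threshold of 0.05. It was the 26th and last gene inside it, and the next gene outside had 0.0509. Genes inside made up 0.186% of those tested in either direction and 0.05% in the lower direction. With any 1 library left out the log2 fold change of ACVRL1 was between -1.51 and -1.28. Its adjusted p stayed under 0.05 in 3 of those 12 fits. Without Sham 1, Sham 4 and Sham 5 it was -1.06 (SE 0.26), with a Sham range that still began above the highest DHCA library, and the adjusted p was then 0.314.

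**Figure D1:**
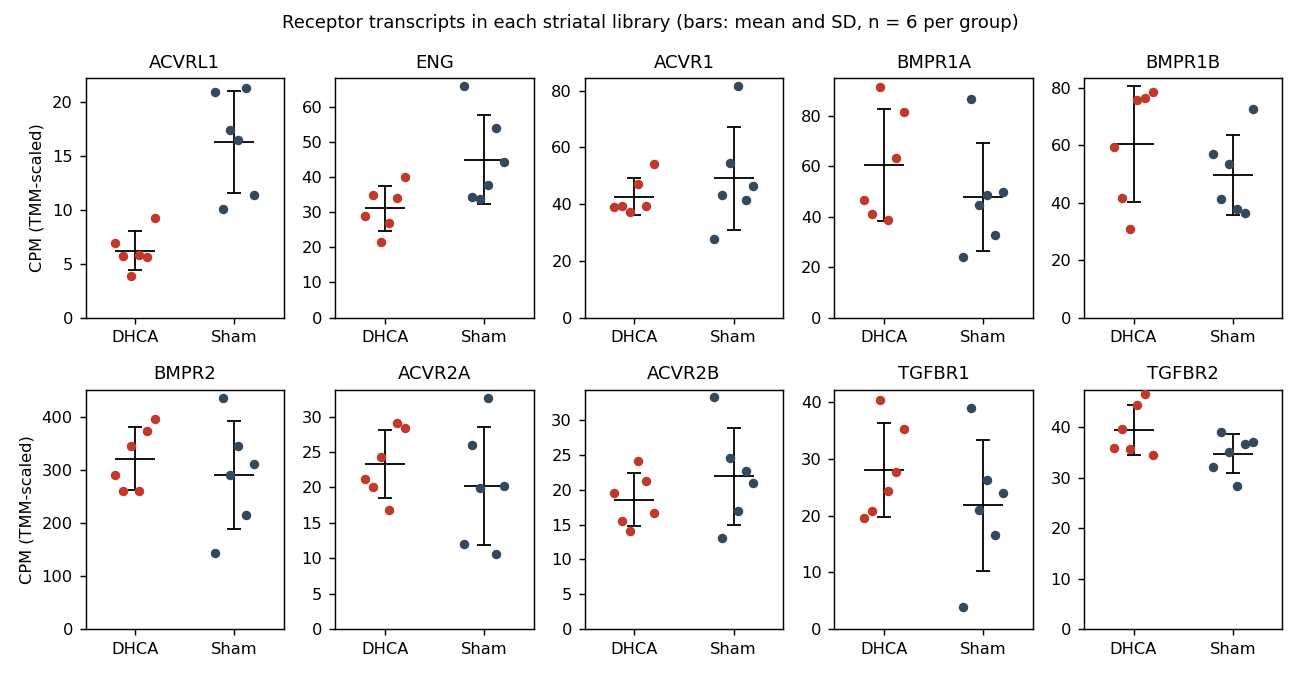
Each panel plots 1 receptor, with CPM on the vertical axis and 1 point per library, DHCA left and Sham right; the bars give mean and SD. ACVRL1 is the panel in which the groups do not overlap, at 3.84 to 9.27 CPM in DHCA and 10.1 to 21.3 CPM in Sham.

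ENG (ENSSSCG00000005625, chromosome 1, 268306120 to 268343936, minus strand), the co-receptor that presents ligand to ACVRL1, did not pass the test, although its mean was lower in DHCA. It had 28.9, 34.9, 21.7, 27.0, 34.0 and 40.0 CPM in DHCA 1 to 6, against 65.9, 34.2, 33.8, 37.8, 53.9 and 44.3 CPM in Sham 1 to 6. The groups overlapped: DHCA 1, DHCA 3 and DHCA 4 were below every Sham library, and all 6 DHCA libraries were below the Sham median. The log2 fold change was -0.52 (SE 0.21), with an adjusted p of 0.512 over all genes in edgeR's quasi-likelihood test. Without Sham 1, Sham 4 and Sham 5 it was -0.28. Along 921 bases of exon ENG overlaps FPGS on the opposite strand, and the counting set no strand option, so reads there cannot be told apart.

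The other type I receptors did not pass the test. In Sscrofa11.1 ACVR1 (ENSSSCG00000015874) lies on chromosome 15 from 64748764 to 64950573 and BMPR1A (ENSSSCG00000010360) on chromosome 14 from 87743388 to 87891780. BMPR1B (ENSSSCG00000029621) lies on chromosome 8 from 124535864 to 124841274 and TGFBR1 (ENSSSCG00000005382) on chromosome 1 from 240842698 to 240918536. ACVR1 (ALK2), a BMP receptor whose activating mutations turn muscle to bone in humans, had 42.7 ± 6.52 CPM in DHCA and 49.0 ± 18.2 CPM in Sham, a log2 fold change of -0.21 (SE 0.22, edgeR adjusted p = 0.830). Sham 4 was highest with 81.6 CPM and Sham 1 lowest with 27.5 CPM, and all of DHCA lay between them. Without Sham 4 the log2 fold change of ACVR1 was -0.012, and without Sham 1 it was -0.33. BMPR1A (ALK3), the widely expressed BMP receptor, had 60.5 ± 22.2 CPM in DHCA and 47.8 ± 21.6 CPM in Sham, a log2 fold change of 0.32 (SE 0.30, edgeR adjusted p = 0.822). Its ranges, 38.8 to 91.4 CPM in DHCA and 24.0 to 86.7 CPM in Sham, overlapped almost wholly.

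BMPR1B (ALK6), known for its part in limb cartilage and in glia, was at 30.7 to 78.7 CPM in DHCA and 36.6 to 72.6 CPM in Sham, a log2 fold change of 0.27 (SE 0.25, edgeR adjusted p = 0.822), and 0.11 without Sham 1, Sham 4 and Sham 5. TGFBR1 (ALK5), the type I receptor of TGF-beta itself, had 28.0 ± 8.30 CPM in DHCA and 21.8 ± 11.6 CPM in Sham, a log2 fold change of 0.32 (SE 0.36, edgeR adjusted p = 0.834). Its lowest value, 3.88 CPM in Sham 1, rests on 10 counts. BMPR1A and TGFBR1 were both lowest in Sham 1 and next lowest, within Sham, in Sham 5, and without Sham 1, Sham 4 and Sham 5 their log2 fold changes were -0.0089 and -0.013.

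None of the type II receptors passed either. BMPR2 (ENSSSCG00000016113) lies on chromosome 15 from 105970321 to 106139772 and ACVR2A (ENSSSCG00000015669) on the same chromosome from 4173797 to 4259962. ACVR2B (ENSSSCG00000011257) and TGFBR2 (ENSSSCG00000011226) lie on chromosome 13, from 23237464 to 23267373 and from 16784365 to 16876656. BMPR2, which pairs with ACVRL1 and is mutated in heritable pulmonary arterial hypertension, had 321 ± 59.1 CPM in DHCA and 290 ± 102 CPM in Sham, a log2 fold change of 0.14 (SE 0.24, edgeR adjusted p = 0.887). The Sham range, 143 CPM in Sham 1 to 436 CPM in Sham 2, enclosed all DHCA libraries, and without Sham 1, Sham 4 and Sham 5 the log2 fold change was -0.12. The activin receptors overlapped between the groups, ACVR2A with 23.3 ± 4.86 CPM in DHCA and 20.2 ± 8.34 CPM in Sham, and ACVR2B with 18.5 ± 3.81 CPM in DHCA and 21.9 ± 6.96 CPM in Sham. The log2 fold change was 0.17 for ACVR2A (SE 0.25, edgeR adjusted p = 0.873) and -0.22 for ACVR2B (SE 0.22, edgeR adjusted p = 0.825). Without Sham 1 alone these were 0.056 for ACVR2A and -0.068 for ACVR2B, and without Sham 4 that of ACVR2A was 0.34. ACVR2A overlaps ORC4 on the opposite strand along 2284 exon bases, so its counts carry the same uncertainty as those of ENG. ACVR2B lies within the span of SLC22A13 on the same strand and shares 0 exon bases with it.

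TGFBR2, the type II receptor of TGF-beta, varied least. It had 35.9, 39.7, 35.6, 44.5, 46.6 and 34.6 CPM in DHCA 1 to 6, against 32.2, 39.0, 35.2, 28.4, 36.6 and 37.2 CPM in Sham 1 to 6. Its coefficient of variation was the lowest of the 10 in both groups, where the other 9 receptors had 15.3% to 36.6% in DHCA and 27.9% to 53.1% in Sham. The log2 fold change of TGFBR2 was 0.18 (SE 0.14, edgeR adjusted p = 0.804), and 0.084 without Sham 1, Sham 4 and Sham 5. Thus 0 of the 9 receptors added as family passed over all genes, and 1 of them, ENG, had an unadjusted p under 0.05, as did 7.9% of all genes tested. DESeq2's Wald test called 0 of the 9 as well. The median log2 fold change of those 9 was 0.17, beside -0.0030 over all genes. Without Sham 1, Sham 4 and Sham 5 the 9 values ran from -0.28 for ENG to 0.11 for BMPR1B, so no shift of the family is read from this median.

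In the authors' deposited table ACVRL1 has a log2 fold change of -1.37 with a standard error of 0.25 and an adjusted p of 4.27e-05. That is the same comparison, on which ACVRL1 was selected, and not separate evidence. The authors' deposited table gives ENG -0.52 with an adjusted p of 0.244, and the 8 other receptors adjusted p-values between 0.667 and 0.839. The sign in the authors' deposited table was read as DHCA minus Sham, because its fold changes correlate at 0.967 with those computed here across 14004 genes; genes are not independent replicates. The statistic in the authors' deposited table has the opposite sign to the fold change in all 21223 rows.

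Levels between receptors were compared as CPM per kb of exon, which removes the effect of gene length. Exon overlap with a gene on the opposite strand is not removed. It covers 2284 bases of ACVR2A (length 6.058 kb) and 921 bases of ENG (length 6.926 kb), so the levels and places of these 2 receptors are less certain. BMPR2 had the highest level, 27.5 ± 5.06 CPM per kb in DHCA and 24.9 ± 8.75 in Sham, and was above its next neighbour in all 6 libraries of each group, with ranges that overlapped in Sham. ACVRL1 had the lowest, 1.01 ± 0.296 CPM per kb in DHCA and 2.66 ± 0.771 in Sham. In DHCA the next lowest receptor, ACVR2A, had 3.85 ± 0.802 CPM per kb and its range did not meet that of ACVRL1. In Sham ACVR2A had 3.34 ± 1.38 CPM per kb, the ranges overlapped, and ACVR2A exceeded ACVRL1 in 4 of 6 libraries.

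The 8 receptors between these ends had mean levels of 3.85 to 9.84 CPM per kb in DHCA and 3.34 to 8.43 CPM per kb in Sham. From the second to the ninth place every pair of neighbours overlapped in both groups. In DHCA the order was BMPR1A, BMPR1B, TGFBR2, ACVR1, ACVR2B, TGFBR1, ENG and ACVR2A. In Sham it was ACVR1, BMPR1A, BMPR1B, TGFBR2, ENG, ACVR2B, TGFBR1 and ACVR2A. ENG held the eighth place in DHCA and the sixth in Sham.

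**Figure D2:**
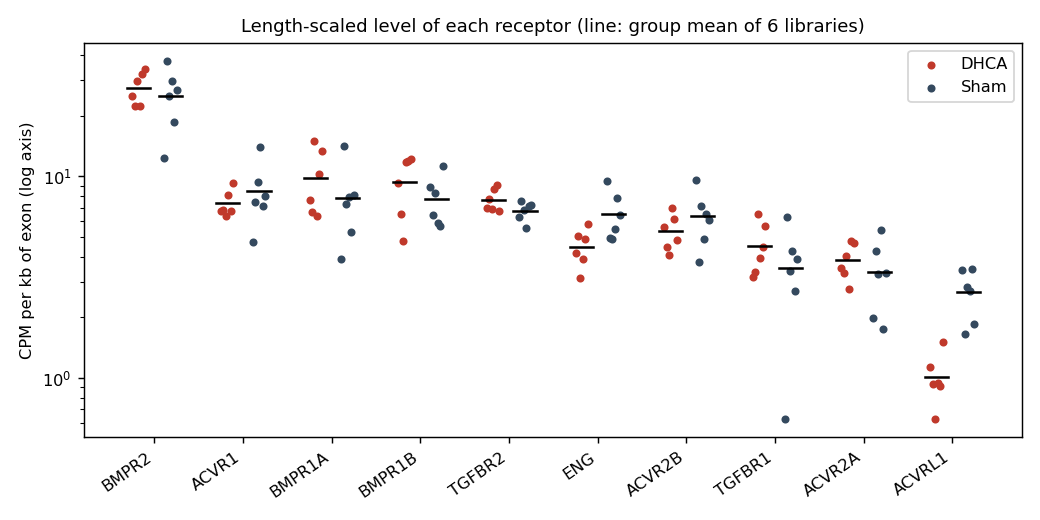
CPM per kb of exon on a log axis for the 10 receptors, 1 point per library, DHCA left of Sham for each gene, with lines at the group means. BMPR2 stands highest, at 27.5 in DHCA and 24.9 in Sham, and ACVRL1 lowest, at 1.01 in DHCA and 2.66 in Sham.

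Because ACVRL1 and ENG are endothelial genes, markers of endothelium were set beside them. The 16 endothelial markers found of 17 listed held 0.0446% ± 0.00335 of counts in DHCA and 0.0521% ± 0.0118 in Sham, a difference that an exact 2-sided permutation test over 924 assignments did not separate (p = 0.180, the smallest possible being 0.00216). The mean log2 CPM over the markers, in which each gene weighs the same, was lower in DHCA by the same test, with a difference of -0.21 (exact permutation p = 0.0130), so the call turned on how the markers were summed. Without Sham 1, Sham 4 and Sham 5 the difference in share was -0.00039 percentage points, beside -0.0075 with all libraries (exact permutation p = 0.845), while without Sham 2 it was -0.010 (exact permutation p = 0.0303) and without Sham 1 alone -0.0041. The Sham values of Sham 1, 0.0690%, and Sham 5, 0.0623%, were the highest of all 12 libraries, and DHCA ran from 0.0414% to 0.0489%. In bulk tissue fewer endothelial cells and less RNA per endothelial cell cannot be told apart. The marker EGFL7 is listed at 0 in all 12 libraries.

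The markers differed in sign. Of 15 tested, 10 had negative and 5 positive log2 fold changes, with a median of -0.52, and 0 passed over all genes by edgeR's quasi-likelihood test or DESeq2's Wald test, while 1 higher and 5 lower had an unadjusted p under 0.05, beside 3.43% higher and 4.47% lower of all genes. CDH5, the cadherin of endothelial junctions, was at 49.4 ± 11.9 CPM in DHCA and 30.9 ± 8.96 CPM in Sham (log2 fold change 0.67, SE 0.21). PECAM1, an adhesion molecule of endothelium and platelets, had 0.29 (SE 0.23), and 0.17 without Sham 1. VWF, the von Willebrand factor gene, had -0.70 (SE 0.32), with its highest values in Sham 1 and Sham 5. It was -0.38 without Sham 1 and -0.17 without Sham 1, Sham 4 and Sham 5. The angiopoietin receptor gene TEK, named after its value was seen, had the lowest of the markers, -0.95 (SE 0.29). The log2 fold change of ACVRL1, -1.37, was below that of all 15 markers, while that of ENG, -0.52, had 8 markers above and 7 below it. Nothing is read from the place of ACVRL1 among them, since it was selected on this contrast.

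ACVRL1 counts were also expressed per 100 endothelial marker counts, as a description, since ACVRL1 was selected on this contrast. It had 1.46, 1.30, 0.844, 1.39, 1.16 and 1.99 counts per 100 endothelial marker counts in DHCA 1 to 6, against 3.11, 2.55, 3.89, 3.52, 3.73 and 2.25 in Sham 1 to 6. The groups did not overlap, with or without Sham 1, Sham 4 and Sham 5, and the means were 1.36 ± 0.379 in DHCA and 3.17 ± 0.664 in Sham (SD, n = 6 each). Nothing is read from this separation, and its share over all genes was not computed for counts scaled in this way. The most counted markers, VWF and FLT1, weigh most in the summed counts, so the ratio depends on how the markers were summed. ENG had 6.82 ± 1.37 counts per 100 marker counts in DHCA and 8.72 ± 0.826 in Sham, and its groups overlapped.

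**Figure D3:**
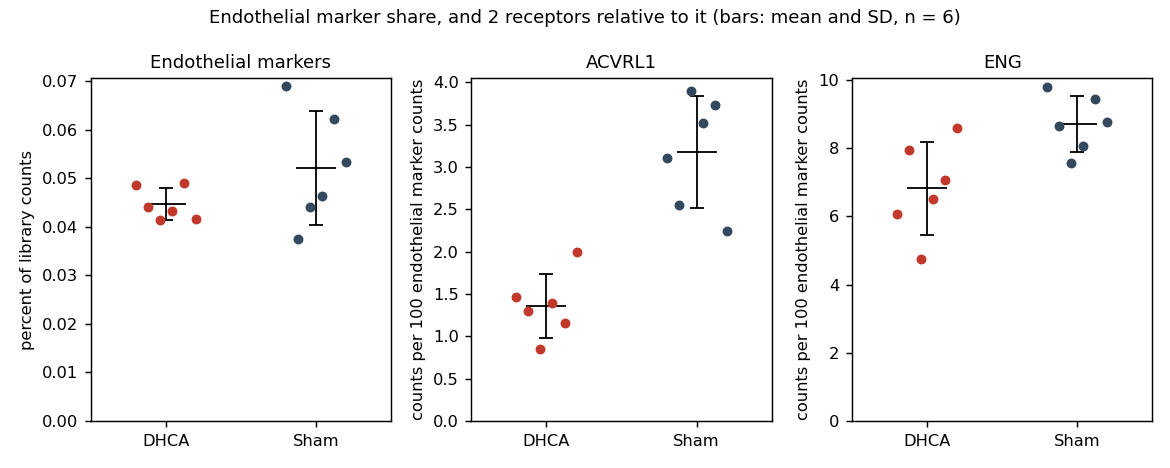
Left, the percent of library counts in endothelial markers; middle and right, ACVRL1 and ENG counts per 100 endothelial marker counts, 1 point per library, DHCA left and Sham right, with mean and SD. ACVRL1 lies at 0.844 to 1.99 in DHCA and 2.25 to 3.89 in Sham, while the marker share and ENG overlap between groups.

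Within groups, 4 relations of log2 CPM to the log2 endothelial share were computed, each over 6 libraries with exact permutation p-values over 720 pairings. In Sham, ENG followed the marker share (Pearson r = 0.96, exact permutation p = 0.00278, adjusted 0.0111; Spearman rho = 0.94, exact permutation p = 0.0167, adjusted 0.0667), and r was 0.995 without Sham 1 and Sham 2, the libraries farthest from the median. ACVRL1 in Sham had r = 0.70 (exact permutation p = 0.135, adjusted 0.269) and rho = 0.71 (exact permutation p = 0.136, adjusted 0.272), and r = 0.22 without the same libraries. In DHCA, where the share hardly varied, ENG had r = 0.17 (exact permutation p = 0.726, adjusted 0.815) and rho = 0.26 (exact permutation p = 0.658, adjusted 0.878), with r = 0.23 without DHCA 1 and DHCA 5. ACVRL1 in DHCA had r = 0.096 (exact permutation p = 0.815, adjusted 0.815) and rho = 0.029 (exact permutation p = 1, adjusted 1), with r = -0.0051 without the same libraries.

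Shares of counts in markers of other cells overlapped between the groups for fibroblast, blood and mural cells, and neither their difference nor their part in the receptor values was tested. Fibroblast markers held 0.0159% to 0.0293% of counts in DHCA and 0.0156% to 0.0480% in Sham, with means of 0.0218% and 0.0352%. Their overlap came from Sham 2 alone, at 0.0156%, and the other Sham libraries began at 0.0311%, above all of DHCA. Blood cell markers, led by the haemoglobin gene HBB, held 0.00253% to 0.00591% in DHCA and 0.00390% to 0.0253% in Sham. Their means were 0.00420% and 0.0131%. Here the overlap came from Sham 1 alone, at 0.00390%, and the other Sham libraries began at 0.00824%, above all of DHCA. Mural cell markers, of pericytes and smooth muscle, held 0.0363% to 0.0410% in DHCA and 0.0276% to 0.0468% in Sham. DHCA 3, the library with the lowest ACVRL1 and ENG, had the largest oligodendrocyte share, 5.84% against 0.454% to 2.52% in the other DHCA libraries. The median log2 fold changes of the lists were 0.046 for mural cells, -0.48 for fibroblasts, -0.20 for microglia, 0.21 for astrocytes, -0.15 for oligodendrocytes and -0.27 for their precursors. They were -0.19 for neurons, 0.010 for spiny projection neurons, -2.63 for cortical neurons with Sham 4 included, -0.10 for thalamic neurons and -1.39 for blood cells. The medians for thalamic neurons and for blood cells rest on 2 tested genes each. DESeq2's Wald test called 1 gene in each of the blood (HBB), oligodendrocyte precursor (GPR17) and cortical (EMX1) lists, where edgeR's test called 0.

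Likeness to ACVRL1 was measured as the Pearson correlation of log2 CPM over the 12 libraries after each group's mean was subtracted, so that the comparison between groups plays no part. Among 12726 genes with a symbol and at least 1 CPM, the 5 most alike were ZNF691 (r = 0.88), SH2D3C (0.87), DACT1 (0.86), IMPA2 (0.85) and DTX4 (0.84). SH2D3C encodes an adaptor of receptor signalling and DACT1 an inhibitor of Wnt signalling. With Sham 1 and Sham 5 left out these 5 kept r between 0.79 and 0.87. ENG had r = 0.69 with ACVRL1, and 0.57 without those libraries. The libraries share their depth and RNA quality in this measure, and it comes without a test.

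Around the receptors, 94 pathway genes were listed by role, of which 90 were in the table and 73 were tested. Over all genes, 1 rose and 0 fell by edgeR's quasi-likelihood test, where 0.186% of all genes passed. The gene that rose is a response gene that is not reported here. DESeq2's Wald test called 3 of the pathway genes, that one, LRRC32 and TMEM100, and limma-voom called 1, where DESeq2 called 1.24% of all genes with an adjusted p and limma-voom 0.193%. Before adjustment 6 were higher and 2 lower at p under 0.05, 8 of 73 beside 7.9% of all genes, and the median log2 fold change of the 73 was -0.027.

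Of 25 ligand genes, 15 were tested, and 0 passed by edgeR's test, by DESeq2's Wald test or at an unadjusted p under 0.05, with log2 fold changes from -0.61 to 0.36. GDF2, the high-affinity ligand of ACVRL1, had 9.64 CPM in DHCA and 9.91 CPM in Sham, a log2 fold change of -0.0085 (SE 0.43). BMP10, its other ligand, had 11 counts over all 12 libraries and was not tested. BMP7, a BMP of brain and kidney, had 36.3 CPM in DHCA and 28.5 CPM in Sham (log2 fold change 0.36, SE 0.28, and 0.20 without Sham 4). BMP2 had -0.36 (SE 0.32) and the activin subunit gene INHBB -0.61 (SE 0.43). Without Sham 1 that of BMP2 was -0.099, and without Sham 4 that of INHBB was -0.17. The TGF-beta ligand TGFB1 had 18.0 CPM in DHCA and 17.5 CPM in Sham.

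Of 12 further receptors and co-receptors, 9 were tested, 0 passed by edgeR's test or DESeq2's Wald test, 7 had negative fold changes and 1 had an unadjusted p under 0.05. The last was BAMBI, a decoy receptor without a kinase, with 8.66 ± 0.985 CPM in DHCA and 12.4 ± 4.43 CPM in Sham, a log2 fold change of -0.54 (SE 0.23). TGFBR3, the co-receptor betaglycan, had -0.37 (SE 0.19, and -0.22 without Sham 2) and RGMA, a membrane-anchored BMP co-receptor, -0.43 (SE 0.23). The activin receptor gene ACVR1B, the type I partner of ACVR2A and ACVR2B, had 57.6 CPM in DHCA and 59.0 CPM in Sham.

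All 8 SMAD genes were tested, and 0 passed by edgeR's test, by DESeq2's Wald test or at an unadjusted p under 0.05. The SMADs that BMP receptors phosphorylate were SMAD1 with a log2 fold change of 0.16 (SE 0.16), SMAD5 with 0.34 (SE 0.30) and SMAD9 with -0.40 (SE 0.23). SMAD4, the partner shared by both branches, had 0.33 (SE 0.29). Without Sham 1, Sham 4 and Sham 5, SMAD5 had 0.069 and SMAD4 had -0.015. Of the inhibitory SMADs, SMAD6 had 1.70 ± 0.937 CPM in DHCA and 2.59 ± 3.35 CPM in Sham (log2 fold change -0.37, SE 0.70). Its medians were 1.44 CPM in DHCA and 1.38 CPM in Sham, and Sham ran from 0.0832 to 9.31 CPM. SMAD7 had 59.2 CPM in DHCA and 61.4 CPM in Sham.

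Of 20 secreted inhibitors and activators, 14 were tested and 0 passed by edgeR's test, while DESeq2's Wald test called 1, LRRC32, and 2 had an unadjusted p under 0.05. LRRC32, also called GARP, which tethers latent TGF-beta to the cell surface, had 40.0, 56.8, 29.7, 51.3, 30.0 and 32.8 CPM in DHCA 1 to 6, against 20.2, 18.1, 6.47, 3.27, 9.99 and 13.6 CPM in Sham 1 to 6. All DHCA libraries were above all Sham libraries, a separation in either direction found in 0.993% of all genes. Its log2 fold change was 1.76 (SE 0.37), with an adjusted p of 0.0782 by edgeR's quasi-likelihood test and 0.000903 by DESeq2's Wald test. The range of its adjusted p over the alternatives was 0.000903 to 0.229. FSTL3, which binds activins, had 0.81 (SE 0.25, edgeR adjusted p = 0.351) with 6 of 6 DHCA libraries above the Sham median. CHRD, which encodes the BMP antagonist chordin, had 7.32 ± 2.92 CPM in DHCA and 14.8 ± 13.8 CPM in Sham, and a log2 fold change of 0.25 without Sham 1, Sham 4 and Sham 5.

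Of 12 intracellular modulators, 11 were tested, and 0 passed by edgeR's test, by DESeq2's Wald test or at an unadjusted p under 0.05. USP15, a deubiquitinase of this pathway, had a log2 fold change of 0.41 (SE 0.30), the ubiquitin ligase gene NEDD4L had 0.31 (SE 0.20) and the SMAD co-repressor gene SKI had -0.54 (SE 0.34). Without Sham 1, Sham 4 and Sham 5 these were 0.10 for USP15, -0.024 for NEDD4L and 0.015 for SKI. SKI had 108 to 165 CPM in DHCA, and 102 to 183 CPM in Sham apart from Sham 1, which had 480 CPM.

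**Figure D4:**
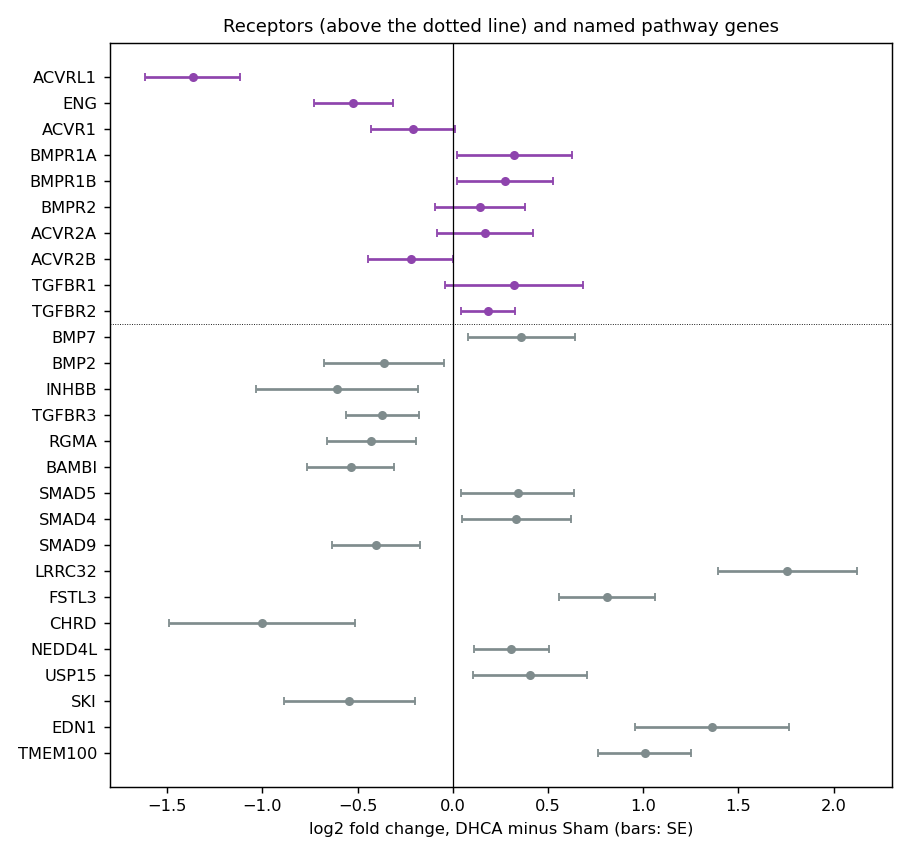
Log2 fold change of DHCA minus Sham with its SE for the 10 receptors, above the dotted line, and for pathway genes named by rule, below it. The response gene that is not reported here is not drawn. ACVRL1 at -1.37 is the lowest and LRRC32 at 1.76 the highest of the genes drawn.

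Of 19 response genes, 18 were tested, with a median log2 fold change of -0.10. By edgeR's test 1 passed, the gene that is not reported here, and DESeq2's Wald test called 2, that gene and TMEM100. At an unadjusted p under 0.05, 4 were higher and 1 lower, beside 3.43% higher and 4.47% lower of all genes. TMEM100, which ACVRL1 signalling induces in mouse and human endothelium, did not pass the test. It had 69.4, 59.5, 59.0, 73.2, 55.4 and 68.4 CPM in DHCA 1 to 6, against 39.2, 39.5, 23.1, 17.9, 20.0 and 50.1 CPM in Sham 1 to 6. TMEM100 did not overlap between the groups, a separation in either direction found in 0.993% of all genes tested. Its log2 fold change was 1.01 (SE 0.24), with an adjusted p of 0.154 by edgeR's quasi-likelihood test, and of 0.0103 by DESeq2's Wald test. Over the alternatives its adjusted p ran from 0.0103 to 0.476. EDN1, which encodes the vasoconstrictor endothelin 1, had 16.6 ± 4.65 CPM in DHCA and 6.48 ± 4.94 CPM in Sham (log2 fold change 1.36, SE 0.40, edgeR adjusted p = 0.296), and Sham 1 lay within the DHCA range.

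The inhibitors of differentiation, the best known BMP targets, showed no call. ID2 had a log2 fold change of -0.31 (SE 0.20), ID3 -0.27 (SE 0.27) and ID4 0.29 (SE 0.25), while ID1 had 31 counts over all libraries and was not tested. ATOH8, a transcription factor gene induced by BMP signals and named after its value was seen, had 1.25 ± 0.507 CPM in DHCA and 3.04 ± 2.23 CPM in Sham (log2 fold change -1.07, SE 0.42, edgeR adjusted p = 0.505). Its groups overlapped, at 0.618 to 2.02 CPM in DHCA and 1.46 to 7.32 CPM in Sham. The highest value was that of Sham 5, the shallowest library. HEY1 and HEY2, targets of both BMP and Notch signals in vessels, had -0.16 (SE 0.15) and -0.37 (SE 0.22).

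**Figure D5:**
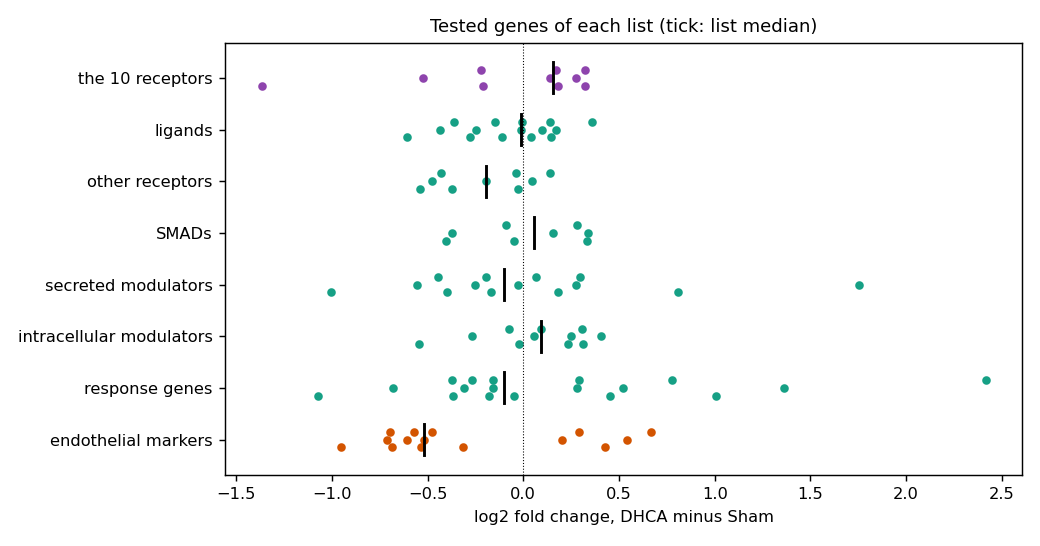
Log2 fold change of DHCA minus Sham, 1 point per tested gene, by role, with a tick at each list's median. The 10 receptors have a median of 0.16 with ACVRL1 apart at -1.37, the response genes a median of -0.10 and the endothelial markers one of -0.52.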

How the data were processed

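RNA of 12 libraries was analysed, grouped by title into 6 DHCA and 6 Sham piglets. The deposited raw counts per Ensembl gene come from featureCounts 1.5.1, run on Sscrofa11.1 exons without a strand option, per the file headers. The exon length per gene in the same file gave CPM per kb. The sources used here do not name an aligner, and 6 further library columns matched no sample and were not used. The authors' deposited comparison table holds a mean normalized signal, log2 fold changes, a score (the test statistic) and p-values, per the file headers, and the submitters' processing notes name DESeq2.

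Counts were filtered with filterByExpr, scaled by TMM and tested with edgeR 4.0.16 (quasi-likelihood F test, group only, R 4.3.3), with Benjamini-Hochberg adjustment over 14004 genes at 0.05. Alternatives were DESeq2 1.42.0 (size factors, Wald test), limma-voom 3.58.1, other filters, a block by title number and libraries left out. One CPM stands for 1.50 to 13.7 counts. The edgeR step was tested on simulated data of this design with known fold changes.

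IDs were named through the authors' deposited table or, failing that, a pig gene table. The receptors, pathway lists and markers were chosen with earlier results of these data known. Named were all receptors, up to 3 genes of each list with the smallest p and any called, the endothelial markers PECAM1, CDH5 and VWF (CLDN5 was not analysed here), and the 5 genes most like ACVRL1. Other pathway genes and markers in the text were named outside the rule, with their values seen. One gene that the rule takes is not reported here. No 2 libraries of a group were alike within sampling noise (chi-square over degrees of freedom at least 8.50). Each p-value rests on the variation between libraries. That variation holds differences in depth, mitochondrial share and marker content between libraries as well as those between piglets.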

Additional observations from a re-analysis of the deposited data

Results flagged for a closer look

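Among 74 groups of 6 libraries, 2 held a library set far from the others by Dixon's criterion, where chance flags about 1 group in 20. CHRD was at 41.2 CPM in Sham 4, against 5.49 to 18.2 CPM in the other Sham libraries. Sham 4 is the library with 0.112% of its counts in cortical neuron markers, and their part in the CHRD value was not tested. SKI was at 480 CPM in Sham 1, against 102 to 183 CPM in the other Sham libraries. None of the 10 receptors had such a library in either group.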

How the results depend on the processing

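The count of called genes was 26, and it was 181 with DESeq2's Wald test, 8 with the replicate block, 1 without Sham 1, Sham 4 and Sham 5 together and 9 to 51 with 1 library left out. The count of called pathway genes was 1, and it was 3 with DESeq2's Wald test, 0 with the replicate block, 0 without Sham 1, Sham 4 and Sham 5, and 0 to 1 with 1 library left out. ACVRL1 kept its direction in all 19 alternatives, from -1.51 to -1.06, and was called in 7 of them. Its adjusted p ran from 8.00e-05 to 0.314, and it was 0.233 with the replicate block and 0.0552 with limma-voom. Same-numbered libraries deviated together in 2 of 6 pairs, with correlations from -0.39 to 0.34, so the numbers were not taken as pairs. ENG, ACVR1, BMPR1B, ACVR2A, ACVR2B and TGFBR2 kept their direction in all 19 and were called in 0. Without Sham 1, Sham 4 and Sham 5 the log2 fold change turned to -0.0089 for BMPR1A, -0.12 for BMPR2, -0.013 for TGFBR1, -0.015 for SMAD4, -0.024 for NEDD4L, 0.25 for CHRD, 0.015 for SKI and 0.00052 for DACT1. That of BMPR2 ran from -0.0012 without Sham 1 to 0.30 over the fits without 1 library. The cause of these turns was not tested. The difference in endothelial share, -0.0075 percentage points, ran from -0.010 (p = 0.0303 by the exact permutation test, without Sham 2) to -0.0041 with 1 library left out. As the mean log2 CPM over the markers it was -0.21 (p = 0.0130 by the exact permutation test). Levels per kb moved by less than 1 SD with DESeq2 size factors for all 10 receptors. A receptor that did not pass is not shown to be equal in both groups, and the 1377809 counts of Sham 5 left from 16 counts (ACVR2A) to 324 counts (BMPR2) per receptor.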
